A study of Mus musculus with 16 samples.

Results

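The genes described here are 35 mouse genes of nucleotide excision repair, base excision and single-strand break repair, mismatch repair, translesion synthesis and direct damage reversal. They were taken from a list of symbols and matched to the Ensembl identifiers of the count tables, by a rule that uses no measured value, although earlier results of these data were known when the list was drawn up. The 35 were found among 22375 genes, and all 35 passed the filter on low counts, which left 15758 genes for testing. They comprise 12 genes of nucleotide excision repair, 13 of base excision and single-strand break repair, 3 of mismatch repair, 6 of translesion synthesis and 1 direct reversal gene.

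RNA was sequenced from mouse embryonic stem (ES) cells of strain 129/OLA, kept on gelatin with serum and LIF. WT cells were the line E14TG2a, and Cfp1-/- cells lack Cfp1 (gene Cxxc1), the CpG-binding protein that takes part in trimethylation of histone H3 lysine 4 at promoters. Each line was left untreated or was given doxorubicin, an inhibitor of topoisomerase II that breaks DNA, at 1 µM for 6 hours. The 4 groups are untreated WT, treated WT, untreated Cfp1-/- and treated Cfp1-/- cells, each with 2 biological replicates of 2 technical replicates. Each genotype is represented by a single line, so a difference between genotypes cannot be told apart from a difference between lines.

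Nucleotide excision repair cuts a short stretch around a bulky lesion: Xpc with Rad23b and the Ddb1-Ddb2 complex find the lesion, Ercc6 and Ercc8 act where an RNA polymerase is blocked, the helicases Ercc2 and Ercc3 open the helix, Xpa checks it, and the nucleases Ercc5 and Ercc4-Ercc1 cut on either side. Base excision repair starts with a glycosylase that removes a damaged base, after which Apex1 cuts the strand, Polb fills the gap and Lig3 with its scaffold Xrcc1 seals it, while Parp1 and Parp2 mark the break. Mismatch repair corrects replication errors, translesion polymerases copy past lesions that stop the replicative polymerases, and Mgmt takes an alkyl group off guanine without cutting DNA. In ES cells, which divide quickly, many of these genes are known to be well expressed.

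The sequences around the starts of 5 members are shown because these genes changed in both lines, 3 upward and 2 downward. They are promoter windows from RefSeq, 250 bases before to 50 bases after the start, located by identical sequence on NCBIm37, the build of the count tables. Each is written 5′ to 3′ on the strand of its gene. Capitals mark CCAAT, the letters bound by NF-Y, as well as GGGCGG, bound by Sp factors, and CACGTG, bound by E-box proteins, or the complement of each.
Ercc5, chr1:44204339-44204638, forward strand: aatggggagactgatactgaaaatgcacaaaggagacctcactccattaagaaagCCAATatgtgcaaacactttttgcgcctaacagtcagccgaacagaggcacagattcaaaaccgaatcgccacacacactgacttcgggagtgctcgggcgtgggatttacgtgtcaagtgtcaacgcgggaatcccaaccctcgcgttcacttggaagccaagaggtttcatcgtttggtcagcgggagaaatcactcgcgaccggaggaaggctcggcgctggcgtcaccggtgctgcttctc
Polk, chr13:97312485-97312784, reverse strand: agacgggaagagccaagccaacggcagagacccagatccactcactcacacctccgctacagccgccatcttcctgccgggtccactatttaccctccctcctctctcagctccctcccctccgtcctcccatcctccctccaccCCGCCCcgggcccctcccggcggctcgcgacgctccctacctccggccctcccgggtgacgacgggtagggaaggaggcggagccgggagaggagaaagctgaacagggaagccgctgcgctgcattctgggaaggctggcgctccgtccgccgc
Mgmt, chr7:144086019-144086318, forward strand: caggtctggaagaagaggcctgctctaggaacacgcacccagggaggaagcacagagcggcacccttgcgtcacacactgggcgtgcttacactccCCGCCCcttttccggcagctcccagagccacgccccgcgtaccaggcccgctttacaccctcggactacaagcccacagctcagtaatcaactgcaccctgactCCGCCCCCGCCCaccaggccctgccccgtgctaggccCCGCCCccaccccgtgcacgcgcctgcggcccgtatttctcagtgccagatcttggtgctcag
Apex1, chr14:51544374-51544673, forward strand: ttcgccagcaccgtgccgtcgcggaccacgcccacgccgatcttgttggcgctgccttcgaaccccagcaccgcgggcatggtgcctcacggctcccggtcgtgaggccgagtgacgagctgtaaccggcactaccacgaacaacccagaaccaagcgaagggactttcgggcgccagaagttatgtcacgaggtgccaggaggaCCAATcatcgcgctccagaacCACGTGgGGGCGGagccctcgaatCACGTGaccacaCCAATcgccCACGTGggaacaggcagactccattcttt
Rad23b, chr4:55362664-55362963, forward strand: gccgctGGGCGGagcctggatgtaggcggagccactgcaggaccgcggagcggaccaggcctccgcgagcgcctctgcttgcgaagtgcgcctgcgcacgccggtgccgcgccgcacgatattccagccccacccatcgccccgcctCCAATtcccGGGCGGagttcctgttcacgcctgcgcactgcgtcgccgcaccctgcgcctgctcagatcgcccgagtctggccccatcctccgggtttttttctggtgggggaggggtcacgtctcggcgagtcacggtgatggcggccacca

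The table of promoters held windows for 29 of the 35 members, and none for Xpc, Ddb2, Ercc3, Polb, Poli and Rev3l. On either strand GGGCGG was found in 23 of the 29 windows (79.31%), against 35.66% of all 32851 windows and 59.14% of the 13861 windows of tested genes. CCAAT stood in 14 windows (48.28%), against 37.41% of all and 37.53% of tested genes. CACGTG stood in 7 windows (24.14%), those of Ercc6, Ercc8, Apex1, Lig3, Parp1, Parp2 and Rev1, against 7.15% and 9.49%. The members' windows held a median of 23 CpG dinucleotides, against 7 in all windows and 19 in those of tested genes, so that base composition differs along with the motif shares. Among the 8 members that rose in both lines 6 windows held GGGCGG and 4 held CCAAT. Of the 6 that fell in both lines, 5 had a window, and of these 5 held GGGCGG and 3 held CCAAT. The E-box CACGTG stood in 1 of the 8 windows of members that rose (Rev1) and in 3 of the 5 of members that fell (Apex1, Lig3 and Parp2), too few for a comparison. Other motifs were searched as well. The letters TATAAA of the core promoter element stood in 2 members' windows (6.9%, against 7.66% of those of tested genes). The ETS factor motif CCGGAAG was present in 6 of the windows (20.69%, against 14.7% of tested genes). The NRF1 motif GCGCATGC was present in 4 of the windows (13.79%, against 4.65% of tested genes). The cyclic AMP response element TGACGTCA was found in none of the members' windows (2.85% of tested genes). A p53 half-site stood in 2 windows (6.9%, against 7.06% of tested genes).

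The region within 5000 bases of each gene start was searched for pairs of p53 consensus half-sites of 10 letters with a spacer of at most 13 bases. A pair was found for 5 of 35 members, and in 513 of 15758 windows of tested genes (3.255%). The 2 pairs near members that rose are shown, with the half-sites in capitals.
Mgmt, chr7:144086527-144086557, forward strand, in an intron and 248 bases after the gene start: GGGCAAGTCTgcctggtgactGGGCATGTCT
Polk, chr13:97316791-97316818, reverse strand, at -4364 from the gene start and inside Col4a3bp: AGGCTAGCTTttgcttaaGAGCAAGTTC
The remaining pairs lay near Mutyh, Rad18 and Ercc1, none of which passed the test of either response. No binding was measured here, so a match describes the letters only.

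Per biological replicate, between 14880589 and 29422711 counts were available. Cxxc1 was at 1199 and 1164 normalized counts in untreated WT, 807 and 876 in treated WT, and between 0.964 and 5.11 in the 4 Cfp1-/- replicates, as the genotype labels state. The ES cell markers were present in every group, with summed levels of 84880 to 112100 normalized counts in untreated and 31400 to 43700 in treated replicates, and 9 of 10 fell with doxorubicin in each line. In untreated Cfp1-/- against untreated WT cells, 2 of the 10 were higher (Nanog and Utf1) and 4 lower (Pou5f1, Zfp42, Tdgf1 and Lin28a). Of all tested genes 17.9% were higher and 16.1% lower there. Nanog was at 1.46 ± 0.35 and Zfp42 at -1.31 ± 0.33 on the log2 scale. Lists for fibroblasts (8 genes), extraembryonic endoderm (6) and trophoblast (6) summed to between 74.2 and 685 normalized counts in every replicate. The treated replicates lay above the untreated ones of their line in the fibroblast list, and in the endoderm list with sums of 194 and 255 in untreated WT, 361 and 376 in treated WT, 365 and 536 in untreated Cfp1-/- and 567 and 685 in treated Cfp1-/- cells. A single gene made up much of each sum after treatment. Mean Col1a1 went from 73.1 to 283 in WT and from 9.02 to 221 in Cfp1-/- cells. Mean Pdgfra went from 27.6 to 216 and from 154 to 449. Others went the other way, with lower means of Dab2 and Sox7 in both lines and of Col1a2 and Col3a1 in WT, none of which passed. No gene of these lists was at 0 in every replicate. Their part in the results was not tested. In RNA from whole cultures, fewer cells of a type and less RNA per cell cannot be told apart.

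Technical replicates agreed within sampling noise in 6 of 8 biological replicates. In replicate 1 of treated Cfp1-/- cells the second technical replicate held no counts for 439 of the 529 genes on chromosome 19 from position 5849702 onward and on X and Y that had at least 200 counts in the first. The member in that region was Ddb1, with 24789 counts in the first and 0 in the second. In replicate 1 of treated WT cells the pair also differed beyond noise. Over the members other than Ddb1, the second technical replicate held 23.6 to 50.0% of the counts of replicate 1 in treated WT and 22.7 to 41.2% in treated Cfp1-/- cells, against 36.3 to 47.6% in the replicates 2. Low shares were seen in both replicates 1 for Polb (23.6 and 22.7%), Ercc1 (27.3 and 24.7%), Parp1 (29.8 and 27.6%) and Ercc2 (30.9 and 24.5%), and results for these genes and Ddb1 are also given without the second technical replicates where they changed.

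Most members were expressed above the typical tested gene. In untreated WT cells the members' median level was 248.8 normalized counts per kb of exon, against 92.28 for all tested genes, and 32 of the 35 lay above the latter. Per kb, Ddb1 stood highest at 7854 ± 329 (SD, n = 2), followed by the mismatch recognition gene Msh6 at 7025 ± 1808, Parp1 at 4509 ± 378, Apex1 at 3132 ± 188, Rad23b at 1966 ± 10.3 and Parp2 at 1134 ± 55.6. The levels of Ddb1 and Msh6 differed by less than the spread of Msh6, and the next 4 were separated by more than their SDs. At the low end were the glycosylases Neil1 at 27.9 ± 12.4, Neil3 at 43.7 ± 1.93 and Ogg1 at 65.0 ± 14.4 per kb. The least abundant member in any library was Neil1, with 31 counts, so no member was near the floor of 3 counts.

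**Figure D1:**
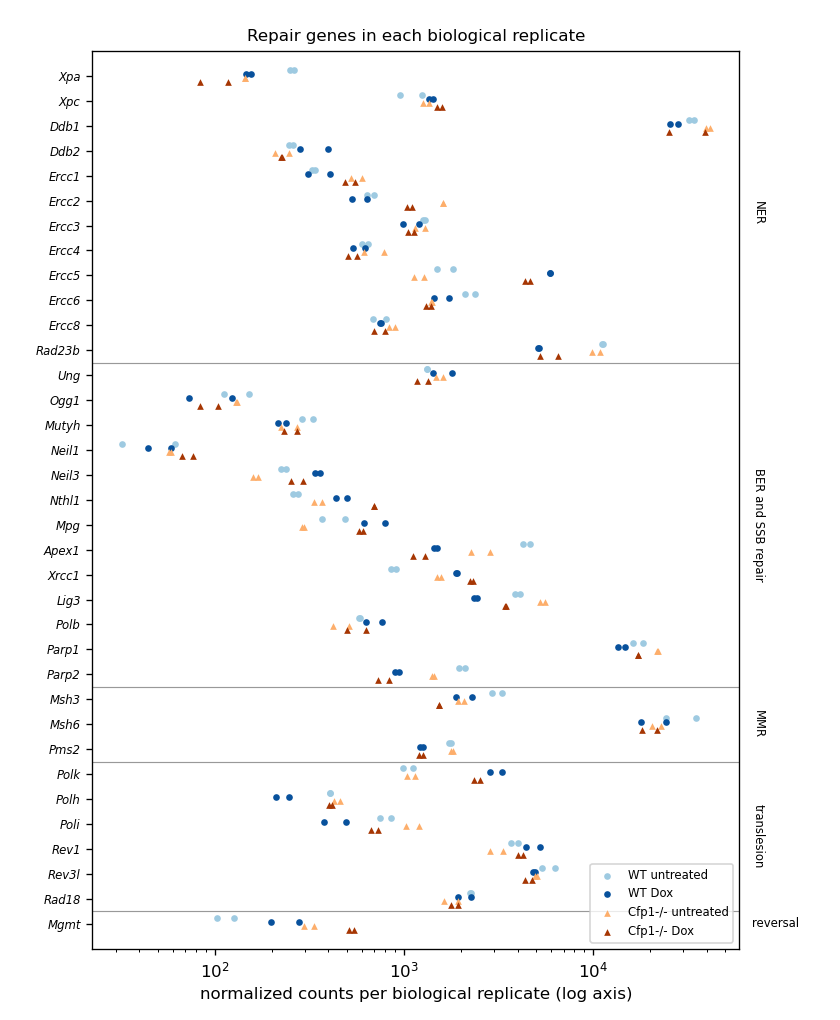
Normalized counts of the 35 repair genes (log axis) in each of 8 biological replicates, as circles for WT and triangles for Cfp1-/- cells, light for untreated and dark for treated. Ercc5, Polk, Nthl1 and Mgmt lie to the right after treatment in both lines and Apex1, Rad23b, Parp2 and Lig3 to the left, while Ddb1, Msh6 and Parp1 are the most abundant in every group.

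Doxorubicin moved the members in both directions. In WT cells 8 of 35 rose (22.9%) and 10 fell (28.6%), where 26.5% of all tested genes rose and 21.8% fell. In Cfp1-/- cells 8 rose (22.9%) and 7 fell (20%), where 27.8% and 21.0% of tested genes did. The shares of members were thus near the background. In both lines 8 members rose, namely Ercc5, Neil3, Nthl1, Mpg, Xrcc1, Polk, Rev1 and Mgmt, against 21.4% of tested genes. Another 6 fell in both, namely Rad23b, Apex1, Lig3, Parp2, Pms2 and Poli, against 16.3%. Treated and untreated replicates did not overlap for 28 of the 35 members in each line, while the share of tested genes was 73.5% for WT and 77.5% for Cfp1-/-. The median log2 fold change was -0.13 over the members and 0.06 over all tested genes in WT cells, and -0.08 and 0.01 in Cfp1-/- cells. With total counts in place of the composition-adjusted scaling, the median of all tested genes moved up by 0.31 in WT and 0.21 in Cfp1-/- cells. The members' medians became 0.18 and 0.14. Calls became 12 higher and 5 lower in WT and 10 higher and 4 lower in Cfp1-/- cells. The share of all tested genes called with total counts was not counted, so these calls have no background beside them.

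At the limits used in the study, 2.5-fold in either direction with an average of 200 normalized counts or more, 3 members passed in WT cells, with Ercc5 and Polk higher and Apex1 lower. Only Ercc5 passed them in Cfp1-/- cells. The share of all tested genes within these limits was 7.91% in WT and 7.61% in Cfp1-/- cells. Without untreated WT replicate 2 or treated WT replicate 1 the members that rose in WT numbered 5, and without untreated WT replicate 1 or treated WT replicate 2 those that fell numbered 6. Leaving out untreated Cfp1-/- replicate 2 or treated Cfp1-/- replicate 1 left 5 that rose in Cfp1-/- cells.

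**Figure D2:**
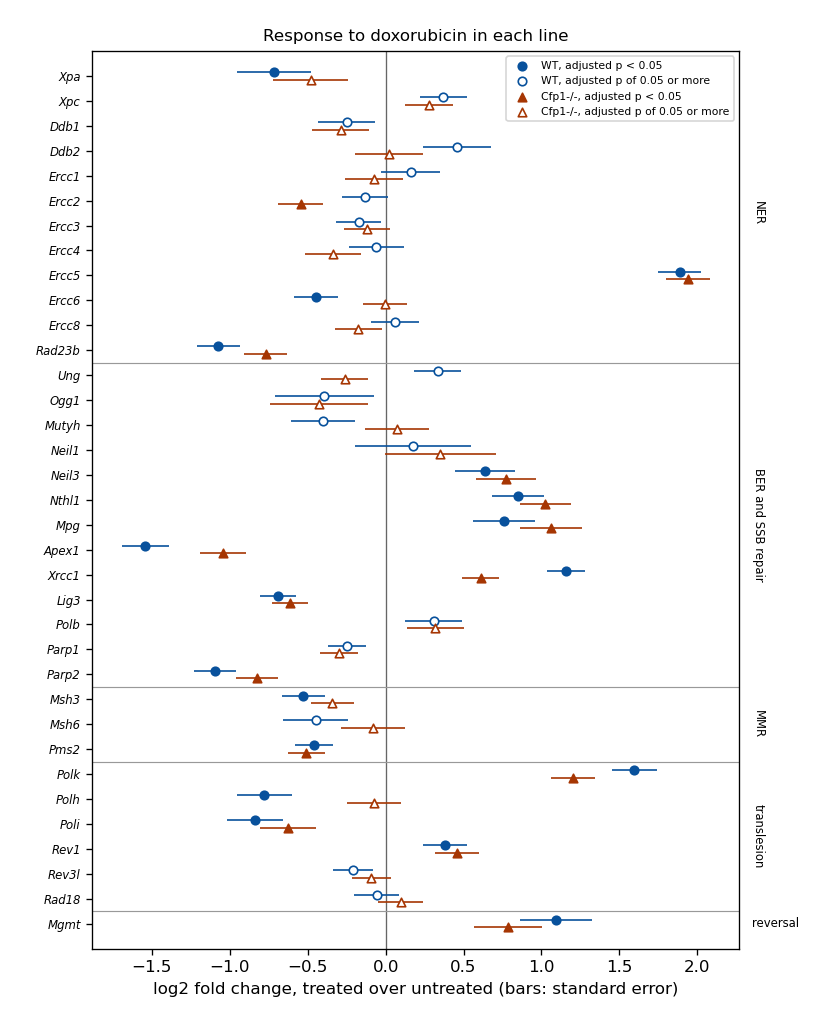
Log2 fold change with doxorubicin of each member, with standard errors, in WT (circles) and Cfp1-/- cells (triangles), filled where the adjusted p-value was under 0.05. Ercc5 has the highest value in both lines (1.89 and 1.94) and Apex1 the lowest (-1.54 and -1.04). Filled points of the 2 lines lie on the same side of 0 wherever both are filled.

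In nucleotide excision repair 1 of 12 members rose (8.33%) and 3 fell (25%) in WT cells, where 26.5% and 21.8% of tested genes did. In Cfp1-/- cells 1 rose (8.33%) and 2 fell (16.7%), where 27.8% and 21.0% did. The member that rose in both lines was Ercc5, the nuclease that cuts on the 3′ side of a lesion (Xpg). Its gene (ENSMUSG00000026048, chr1:44204589-44238105) gave 1505 and 1827 normalized counts in untreated WT, 5975 and 5967 in treated WT, 1282 and 1140.1 in untreated Cfp1-/- and 4403 and 4630.1 in treated Cfp1-/- cells. All 4 treated replicates lay more than 2-fold above every untreated one. The log2 fold change was 1.89 ± 0.14, adjusted p = 1.05e-05 in WT and 1.94 ± 0.14, adjusted p = 1.07e-05 in Cfp1-/- cells, which is 3.70-fold and 3.84-fold, with the standard error after the sign and edgeR's adjusted p.

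Rad23b, the partner that stabilizes the damage sensor Xpc, went the other way. Its gene (chr4:55362915-55405109) gave 11314 and 11230.0 normalized counts in untreated WT, 5149 and 5223 in treated WT, 9862 and 10863 in untreated Cfp1-/- and 6534 and 5251 in treated Cfp1-/- cells. The treated replicates lay below every untreated one in both lines. It fell by 1.07 ± 0.14 on the log2 scale in WT (adjusted p = 0.000202) and by 0.77 ± 0.14 in Cfp1-/- cells (adjusted p = 0.00137). Xpc itself did not pass, with 1255 and 960.1 normalized counts in untreated WT, 1423 and 1353 in treated WT, 1264 and 1363 in untreated Cfp1-/- and 1500.2 and 1592 in treated Cfp1-/- cells and log2 fold changes of 0.37 ± 0.15, adjusted p = 0.0707 and 0.28 ± 0.15, adjusted p = 0.159. With total counts it passed in both lines (0.68, adjusted p = 0.00557 and 0.49, adjusted p = 0.0262), and in WT also without untreated WT replicate 1 (0.58, adjusted p = 0.0309). The sensor and its partner thus had fold changes of opposite sign in each line, which was tested for Rad23b and Xpc separately and not as a pair.

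Xpa, Ercc6 and Ercc2, 3 further genes of this pathway, each passed in 1 line. Xpa, which verifies the lesion, gave 251 and 264 normalized counts in untreated WT, 147 and 156 in treated WT, 146 and 145 in untreated Cfp1-/- and 118 and 83.9 in treated Cfp1-/- cells. Its log2 fold change was -0.72 ± 0.24, adjusted p = 0.0316 in WT and -0.48 ± 0.24, adjusted p = 0.128 in Cfp1-/- cells, and in both lines the treated replicates lay below the untreated ones. Ercc6, the Cockayne syndrome B protein that acts at stalled RNA polymerase, gave 2384 and 2097 normalized counts in untreated WT, 1745 and 1441 in treated WT, 1419 and 1389 in untreated Cfp1-/- and 1402 and 1316 in treated Cfp1-/- cells. It fell in WT (-0.45 ± 0.14, adjusted p = 0.0261) and had a log2 fold change of -0.0047 ± 0.14, adjusted p = 0.981 in Cfp1-/- cells, where the untreated replicates lay below those of treated WT cells. Ercc2, a helicase of the transcription factor TFIIH, gave 695 and 639 normalized counts in untreated WT, 534 and 643 in treated WT, 1619.6 and 1609 in untreated Cfp1-/- and 1106 and 1043 in treated Cfp1-/- cells. It fell in Cfp1-/- cells (-0.54 ± 0.14, adjusted p = 0.0113), with -0.13 ± 0.15, adjusted p = 0.483 in WT, where the groups overlapped. Without the second technical replicate that lost counts, Ercc2 in Cfp1-/- cells was at -0.44, which still passed. The differences between the lines for Xpa, Ercc6 and Ercc2 were 0.23 ± 0.34, adjusted p = 0.864, 0.44 ± 0.20, adjusted p = 0.478 and -0.41 ± 0.21, adjusted p = 0.526, none past the threshold.

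The other 7 genes of nucleotide excision repair did not pass in either line. The damage sensor Ddb2 gave 247 and 261 normalized counts in untreated WT, 396 and 282 in treated WT, 209.5 and 247 in untreated Cfp1-/- and 224 and 227 in treated Cfp1-/- cells. In WT cells its treated replicates lay above the untreated ones, with 0.46 ± 0.22, adjusted p = 0.108, and in Cfp1-/- cells they overlapped, with 0.02 ± 0.22, adjusted p = 0.94. Ddb2 in WT passed with total counts (0.78, adjusted p = 0.0166) or without treated WT replicate 2 (0.68, adjusted p = 0.0448). Its complex partner Ddb1 gave 34085 and 32124 normalized counts in untreated WT, 25667 and 28235 in treated WT, 39555 and 41561 in untreated Cfp1-/- and 25316 and 39166 in treated Cfp1-/- cells, and the low treated Cfp1-/- value of replicate 1 comes from the technical replicate with no counts for this gene. With that technical replicate left out, the log2 fold change of Ddb1 in Cfp1-/- cells was -0.02 ± 0.11 (adjusted p = 0.916), against -0.29 ± 0.18, adjusted p = 0.223 with it. Without the whole of treated Cfp1-/- replicate 2, which leaves the replicate with the lost counts, it was at -0.63 (adjusted p = 0.0134). Ercc1, Ercc3, Ercc4 and Ercc8 had log2 fold changes from -0.17 to 0.16 in WT and from -0.34 to -0.07 in Cfp1-/- cells.

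Among these calls, Ercc5 and Rad23b kept theirs with any 1 replicate left out. Xpa in WT did not pass without either replicate of untreated or treated WT cells (-0.77 to -0.68, adjusted p from 0.0741 to 0.113). Ercc6 in WT did not pass without untreated WT replicate 1 (-0.35, adjusted p = 0.16) or treated WT replicate 2 (-0.32, adjusted p = 0.156) or with its 2 groups fitted alone (-0.44, adjusted p = 0.0564), nor did Ercc2 in Cfp1-/- cells without treated Cfp1-/- replicate 2 (-0.50, adjusted p = 0.0764). With total counts Xpa, Ercc6 and Ercc2 were at -0.40, -0.13 and -0.33 and none passed.

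**Figure D3:**
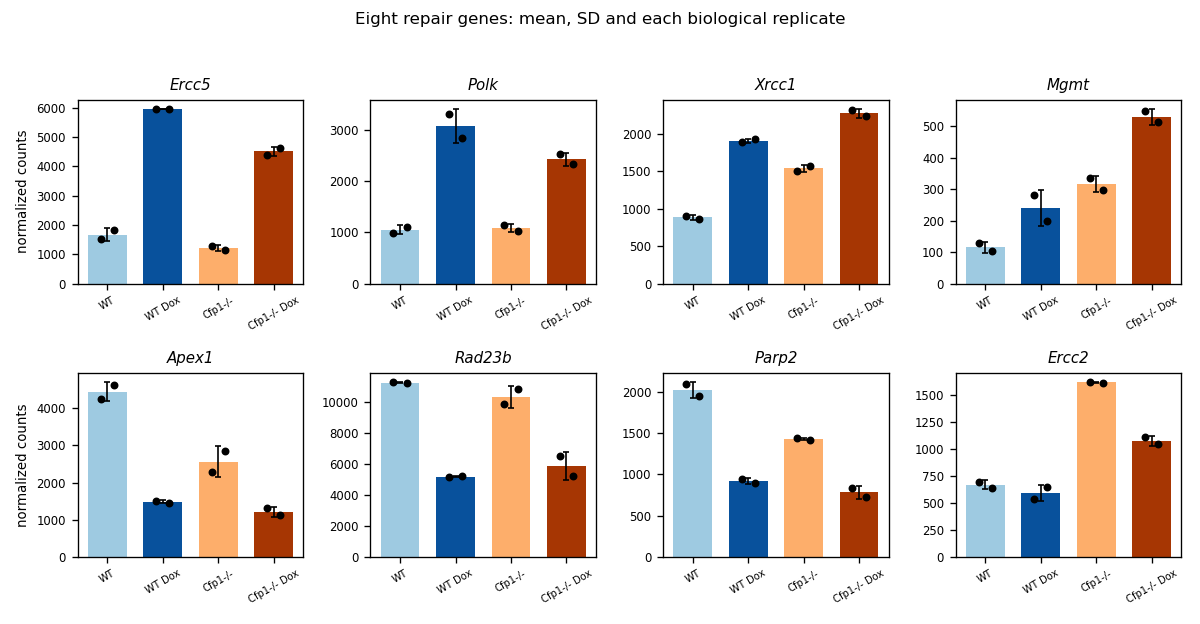
Normalized counts of 8 members in the 4 groups, with bars for the mean, error bars for the SD and points for the 2 biological replicates. Treated bars stand above untreated bars of the same line for Ercc5, Polk, Xrcc1 and Mgmt and below them for Apex1, Rad23b and Parp2, and for Ercc2 the Cfp1-/- bars stand above the WT bars.

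In base excision and single-strand break repair 4 of 13 members rose (30.8%) and 3 fell (23.1%) in each line. Of all tested genes 26.5% rose and 21.8% fell in WT and 27.8% and 21.0% in Cfp1-/- cells, so the shares were near the background. The enzyme of the central step was among those that fell, and the glycosylases Neil3, Nthl1 and Mpg were among those that rose. Apex1, the endonuclease that cuts at a site left without a base, lies at chr14:51544643-51546814 and gave 4265 and 4642 normalized counts in untreated WT, 1509 and 1451 in treated WT, 2271 and 2861 in untreated Cfp1-/- and 1302 and 1115 in treated Cfp1-/- cells. The treated replicates of both lines ranged from 1115 to 1509, below every untreated replicate. The log2 fold change was -1.54 ± 0.15, adjusted p = 4.22e-05 in WT and -1.04 ± 0.15, adjusted p = 0.000411 in Cfp1-/- cells. Of its exon bases 61.7% lie opposite exons of Tmem55b on the other strand, and Tmem55b was itself lower after treatment, with log2 fold changes of -1.02 ± 0.17 (adjusted p = 0.000855) and -1.03 ± 0.17 (adjusted p = 0.00081). Counting was stranded, so reads of the 2 genes were counted apart.

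The poly(ADP-ribose) polymerase gene Parp2 lies 103.7 kb from Apex1 on the same strand of chromosome 14 and fell as well. It gave 2097 and 1957 normalized counts in untreated WT, 943 and 897 in treated WT, 1442 and 1419 in untreated Cfp1-/- and 835 and 729 in treated Cfp1-/- cells, with log2 fold changes of -1.09 ± 0.14, adjusted p = 0.000165 and -0.83 ± 0.13, adjusted p = 0.000844. Parp1, the main enzyme of this family, gave 18369 and 16313 normalized counts in untreated WT, 13560.0 and 14774 in treated WT, 21847 and 22077 in untreated Cfp1-/- and 17334 and 17379 in treated Cfp1-/- cells. Its treated replicates lay below the untreated ones in both lines, but it did not pass (-0.25 ± 0.12, adjusted p = 0.123 and -0.30 ± 0.12, adjusted p = 0.0681). In Cfp1-/- cells Parp1 passed with DESeq2's size factors (-0.34, adjusted p = 0.0424) and with DESeq2's Wald test (-0.34, adjusted p = 0.0362), and in WT it was at 0.0683 with total counts. Lig3, the ligase of short-patch repair, gave 3866 and 4121 normalized counts in untreated WT, 2342 and 2450.5 in treated WT, 5228 and 5603 in untreated Cfp1-/- and 3418 and 3456 in treated Cfp1-/- cells. It fell in both lines, by 0.69 ± 0.12 (adjusted p = 0.000951) and 0.61 ± 0.11 (adjusted p = 0.00186) on the log2 scale.

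Xrcc1, the scaffold that holds Lig3 and Polb at a break, rose where Lig3 fell. It gave 905 and 861 normalized counts in untreated WT, 1888 and 1926 in treated WT, 1505 and 1570.2 in untreated Cfp1-/- and 2319 and 2233 in treated Cfp1-/- cells. The log2 fold changes were 1.16 ± 0.12, adjusted p = 6.33e-05 in WT and 0.61 ± 0.12, adjusted p = 0.00244 in Cfp1-/- cells, and the rise started from a higher level in the latter. Polb, the polymerase that fills the gap, gave 586 and 582 normalized counts in untreated WT, 633 and 768 in treated WT, 424 and 515 in untreated Cfp1-/- and 504 and 632 in treated Cfp1-/- cells and did not pass (0.31 ± 0.18, adjusted p = 0.193 and 0.32 ± 0.18, adjusted p = 0.179). With the first technical replicates alone Polb was at 0.43 in Cfp1-/- cells and passed (adjusted p = 0.0456), and with total counts it passed in both lines (0.62, adjusted p = 0.0223 and 0.54, adjusted p = 0.043).

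The glycosylases Nthl1, Mpg and Neil3 rose in both lines. Nthl1, which removes oxidized pyrimidines, gave 278 and 259.6 normalized counts in untreated WT, 500.4 and 439 in treated WT, 336 and 368 in untreated Cfp1-/- and 695 and 696 in treated Cfp1-/- cells, with log2 fold changes of 0.85 ± 0.17, adjusted p = 0.00238 and 1.03 ± 0.16, adjusted p = 0.000786. Mpg, which removes alkylated purines, gave 490.1 and 368 normalized counts in untreated WT, 793 and 616 in treated WT, 299 and 289 in untreated Cfp1-/- and 611 and 578 in treated Cfp1-/- cells, with 0.76 ± 0.20, adjusted p = 0.0107 and 1.06 ± 0.20, adjusted p = 0.00196. Neil3, which acts on oxidized bases and in repair of crosslinks, gave 224 and 239 normalized counts in untreated WT, 360.2 and 338 in treated WT, 169 and 159.7 in untreated Cfp1-/- and 292 and 253 in treated Cfp1-/- cells, with 0.64 ± 0.19, adjusted p = 0.0205 and 0.77 ± 0.19, adjusted p = 0.00873. For each of the 3 every treated replicate lay above the untreated replicates of its line.

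The remaining glycosylases did not pass. Ung, which removes uracil, gave 1326 and 1324 normalized counts in untreated WT, 1797 and 1436 in treated WT, 1619 and 1489 in untreated Cfp1-/- and 1344 and 1172 in treated Cfp1-/- cells. In WT cells its treated replicates lay above the untreated ones (0.33 ± 0.15, adjusted p = 0.0962), and in Cfp1-/- cells they lay below (-0.26 ± 0.15, adjusted p = 0.179). The difference between the lines was -0.59 ± 0.21, adjusted p = 0.366. Ung in WT passed with total counts (0.65, adjusted p = 0.0053) or without treated WT replicate 2 (0.48, adjusted p = 0.0464). Mutyh, which removes adenine opposite oxidized guanine, gave 291 and 330.5 normalized counts in untreated WT, 217 and 238 in treated WT, 223 and 272 in untreated Cfp1-/- and 272 and 234 in treated Cfp1-/- cells, with -0.40 ± 0.20, adjusted p = 0.131 and 0.07 ± 0.20, adjusted p = 0.791. Ogg1, which removes oxidized guanine, was low at 153 and 112 normalized counts in untreated WT, 123 and 72.9 in treated WT, 129.8 and 131 in untreated Cfp1-/- and 104 and 83.9 in treated Cfp1-/- cells, with -0.40 ± 0.32, adjusted p = 0.332 and -0.43 ± 0.32, adjusted p = 0.289. Neil1 was the lowest member, at 62.0 and 32.3 normalized counts in untreated WT, 44.5 and 59.1 in treated WT, 57.5 and 59.2 in untreated Cfp1-/- and 67.4 and 77.1 in treated Cfp1-/- cells, and its log2 fold changes of 0.18 ± 0.37, adjusted p = 0.72 and 0.35 ± 0.36, adjusted p = 0.448 had the widest errors of the list.

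With 1 replicate left out Apex1, Parp2, Lig3, Xrcc1 and Nthl1 kept their calls in both lines. Neil3 in WT did not pass without either replicate of untreated or treated WT cells (0.59 to 0.68, adjusted p from 0.0505 to 0.0944), nor in Cfp1-/- cells without untreated replicate 2 (0.72, adjusted p = 0.0574) or treated replicate 1 (0.64, adjusted p = 0.0662). Mpg in WT did not pass without untreated WT replicate 2 (0.55, adjusted p = 0.0887) or treated WT replicate 1 (0.56, adjusted p = 0.0796).

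In mismatch repair 2 of 3 members fell in WT (66.7%) and 1 in Cfp1-/- cells (33.3%), against 21.8% and 21.0% of tested genes. A list of 3 is too short for a comparison of shares. All 3 had log2 fold changes below 0 in both lines, under each of the 3 scalings for Pms2 and Msh3. Msh6 in Cfp1-/- cells was at 0.13 with total counts and 0.0481 without treated Cfp1-/- replicate 2. Pms2, the nuclease subunit of the complex that follows recognition, gave 1786 and 1739.9 normalized counts in untreated WT, 1271 and 1217 in treated WT, 1828 and 1789 in untreated Cfp1-/- and 1260.2 and 1209 in treated Cfp1-/- cells and fell in both lines, by 0.46 ± 0.12 (adjusted p = 0.0114) and 0.51 ± 0.12 (adjusted p = 0.00668). Of its exon bases 4.86% are shared with Rsph10b2 on the same strand, where union counting drops reads. Msh3, which recognizes larger loops, gave 3296 and 2919 normalized counts in untreated WT, 2295 and 1882 in treated WT, 1938 and 2076 in untreated Cfp1-/- and 1535 and 1539.5 in treated Cfp1-/- cells. It fell in WT (-0.53 ± 0.14, adjusted p = 0.0109), with -0.34 ± 0.14, adjusted p = 0.0659 in Cfp1-/- cells. Msh6, which recognizes base mismatches, gave 35322 and 24445 normalized counts in untreated WT, 24405 and 17990.0 in treated WT, 22830.0 and 20604 in untreated Cfp1-/- and 21725 and 18194 in treated Cfp1-/- cells, and its untreated WT replicates differed by more than any other group of this gene. It did not pass (-0.45 ± 0.21, adjusted p = 0.0994 and -0.08 ± 0.21, adjusted p = 0.776).

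With total counts Pms2 was at -0.14 in WT and -0.29 in Cfp1-/- cells and Msh3 at -0.21 in WT, and none of these passed. Msh3 in Cfp1-/- cells passed with DESeq2's size factors (-0.38, adjusted p = 0.0436) or without either treated WT replicate (-0.35, adjusted p = 0.0482 and 0.048). Without untreated WT replicate 1 or treated WT replicate 2, Pms2 in WT was at -0.44 (adjusted p = 0.066) or -0.43 (adjusted p = 0.0552) and Msh3 at -0.44 (adjusted p = 0.0834) or -0.40 (adjusted p = 0.0756). Without untreated WT replicate 2 or treated WT replicate 1, Msh6 in WT was at -0.71 (adjusted p = 0.0269) or -0.69 (adjusted p = 0.0444) and passed.

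The translesion polymerases moved apart. Polk, which copies past bulky adducts on guanine, lies at chr13:97250644-97312440 and gave 993 and 1113 normalized counts in untreated WT, 3323 and 2848 in treated WT, 1147 and 1035 in untreated Cfp1-/- and 2525 and 2344 in treated Cfp1-/- cells. Every treated replicate stood more than 2-fold above every untreated one. The log2 fold changes were 1.60 ± 0.14, adjusted p = 2.67e-05 in WT and 1.20 ± 0.14, adjusted p = 0.000128 in Cfp1-/- cells, which is 3.02-fold and 2.30-fold. Rev1, the scaffold polymerase to which the others bind, gave 3687 and 4016 normalized counts in untreated WT, 5265 and 4447 in treated WT, 3347 and 2876 in untreated Cfp1-/- and 4285 and 4006 in treated Cfp1-/- cells and rose by less, with 0.38 ± 0.14, adjusted p = 0.0464 and 0.46 ± 0.14, adjusted p = 0.0221.

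Poli, a polymerase of low fidelity, fell in both lines. It gave 855 and 747 normalized counts in untreated WT, 493 and 377 in treated WT, 1209.8 and 1025 in untreated Cfp1-/- and 732 and 672 in treated Cfp1-/- cells, with log2 fold changes of -0.84 ± 0.18, adjusted p = 0.00414 and -0.63 ± 0.18, adjusted p = 0.0157. Polh, which copies past ultraviolet dimers, gave 407 and 406 normalized counts in untreated WT, 248 and 211 in treated WT, 461 and 430.2 in untreated Cfp1-/- and 417 and 405 in treated Cfp1-/- cells. In WT cells it fell (-0.78 ± 0.18, adjusted p = 0.00508), with treated replicates at 248 and 211 against untreated ones at 407 and 406. In Cfp1-/- cells the log2 fold change was -0.07 ± 0.17, adjusted p = 0.745, and the difference between the lines of 0.71 ± 0.24, adjusted p = 0.348 did not pass. Rev3l, the catalytic subunit of polymerase zeta, and Rad18, the ubiquitin ligase that marks Pcna, did not pass, with log2 fold changes of -0.21 and -0.06 in WT and -0.09 and 0.10 in Cfp1-/- cells.

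Polk kept both calls, and Polh and Poli their calls in WT, with any 1 replicate left out. Rev1 in WT did not pass without either untreated WT replicate, treated WT replicate 1 or either treated Cfp1-/- replicate (0.25 to 0.43, adjusted p from 0.0614 to 0.259), with DESeq2's Wald test (adjusted p = 0.0885) with DESeq2's size factors (adjusted p = 0.0656), without a filter (adjusted p = 0.0562) or with its 2 groups fitted alone (adjusted p = 0.059). In Cfp1-/- cells Rev1 did not pass without untreated replicate 2 or either treated replicate (0.34 to 0.51, adjusted p from 0.0527 to 0.156). Poli in Cfp1-/- cells did not pass without untreated replicate 1 (-0.51, adjusted p = 0.0927) or treated replicate 2 (-0.56, adjusted p = 0.0992), or with total counts (-0.41, adjusted p = 0.0806). With total counts Polh in WT was at -0.47 (adjusted p = 0.0509).

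Mgmt, the only direct reversal member, changed with both treatment and genotype. Its gene (chr7:144086294-144319870), whose start and p53-type letters are shown above, gave 127 and 103 normalized counts in untreated WT, 280.3 and 199 in treated WT, 335 and 298 in untreated Cfp1-/- and 548 and 512 in treated Cfp1-/- cells. The order of the groups was untreated WT, treated WT, untreated Cfp1-/- and treated Cfp1-/-, and no 2 groups overlapped. With doxorubicin the log2 fold change was 1.09 ± 0.23, adjusted p = 0.00358 in WT and 0.79 ± 0.22, adjusted p = 0.0142 in Cfp1-/- cells. In Cfp1-/- cells it did not pass without untreated replicate 2 or either treated replicate (0.69 to 0.84, adjusted p from 0.0516 to 0.0924).

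No member passed the test of the difference between the responses of the 2 lines, where 0.235% of tested genes did. At an unadjusted p under 0.05 there were 4 members, Ung, Xrcc1, Apex1 and Polh, and the share of all tested genes at this limit was not counted. Their differences, Cfp1-/- minus WT, were -0.59 ± 0.21, adjusted p = 0.366, -0.55 ± 0.17, adjusted p = 0.292, 0.50 ± 0.21, adjusted p = 0.439 and 0.71 ± 0.24, adjusted p = 0.348. Over the 35 members the differences ranged from -0.59 for Ung to 0.71 for Polh. Of the 17 other settings, the fit of the groups of each comparison alone does not test this difference. None of the rest, DESeq2's Wald test among them, called a difference for a member. In simulated counts 75% of genes that differed 3-fold between the responses were recovered at this number of libraries, so smaller differences can be missed.

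Untreated Cfp1-/- and untreated WT cells were then compared. These comparisons use the same untreated WT replicates as the response in WT cells, so the values are set side by side without relating them. In untreated Cfp1-/- cells 6 members were higher (17.1%) and 6 lower (17.1%), where 17.9% of tested genes were higher and 16.1% lower, so the shares were near the background. The median log2 difference was 0.01 over the members and 0.01 over all tested genes.

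Mgmt and Ercc2 stood furthest apart between the genotypes. For Mgmt, 127 and 103 in WT stood against 335 and 298 in Cfp1-/- cells, a log2 difference of 1.48 ± 0.23, adjusted p = 0.00146 or 2.79-fold. For Ercc2, 695 and 639 stood against 1619.6 and 1609, a log2 difference of 1.30 ± 0.15, adjusted p = 0.000323 or 2.47-fold. Ercc1, the nuclease subunit whose gene ends 25.5 kb before Ercc2 on chromosome 7, was higher too (338 and 329 against 528 and 599; 0.78 ± 0.19, adjusted p = 0.0107). Of the exon bases of Ercc2, 42.4% lie opposite Klc3 and Gm17574 on the other strand. Klc3 was lower in untreated Cfp1-/- cells, with a log2 difference of -0.95 ± 0.32 (adjusted p = 0.045).

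Of the genes of single-strand break repair, Xrcc1 was higher in untreated Cfp1-/- cells (0.83 ± 0.12, adjusted p = 0.00111), as were Lig3 (0.47 ± 0.11, adjusted p = 0.012) and Parp1 (0.37 ± 0.12, adjusted p = 0.041). Apex1 and Parp2 were lower (-0.77 ± 0.15, adjusted p = 0.00399 and -0.47 ± 0.13, adjusted p = 0.0215). The lower nucleotide excision genes were Xpa (-0.79 ± 0.24, adjusted p = 0.0277), Ercc5 (-0.43 ± 0.14, adjusted p = 0.0346) and Ercc6 (-0.65 ± 0.14, adjusted p = 0.00744), and the lower mismatch repair gene was Msh3 (-0.60 ± 0.14, adjusted p = 0.00904). The untreated replicates of the 2 genotypes did not overlap for any of these 12 genes, as held for 30 of the 35 members and 69.9% of all tested genes.

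Ercc2, Mgmt, Xrcc1 and Apex1 kept this call with any 1 replicate left out. The others lost it in at least 1 such fit, Ercc1 without untreated WT replicate 2 (0.76, adjusted p = 0.0597) or untreated Cfp1-/- replicate 2 (0.70, adjusted p = 0.0618), Ercc6 without untreated WT replicate 1 (-0.54, adjusted p = 0.0564), and Msh3 without untreated WT replicate 1 (-0.50, adjusted p = 0.0689) or untreated Cfp1-/- replicate 1 (-0.54, adjusted p = 0.0686). Lig3 lost it without either untreated WT replicate or untreated Cfp1-/- replicate 2 (0.43 to 0.51, adjusted p from 0.0564 to 0.0828), and Ercc5 without untreated WT replicate 2 or either untreated Cfp1-/- replicate (-0.50 to -0.29, adjusted p from 0.0714 to 0.246). Xpa and Parp2 lost it without any 1 of the 4 untreated replicates (Xpa -0.82 to -0.76, Parp2 -0.53 to -0.41), and Parp1 without any 1 of the Cfp1-/- or untreated WT replicates (0.28 to 0.47, adjusted p from 0.0515 to 0.264). Without untreated WT replicate 2 or untreated Cfp1-/- replicate 2 the members higher numbered 3, and without any 1 of the 4 untreated replicates those lower numbered 2 or 3. With total counts 11 members were higher and 3 lower, and the share of all tested genes was not counted. Xpa (-0.60, adjusted p = 0.0727), Ercc5 (-0.24, adjusted p = 0.188) and Parp2 (-0.28, adjusted p = 0.118) did not pass with that scaling. Ercc5 did not pass with the 2 groups fitted alone (adjusted p = 0.0761), Xpa with the first technical replicates alone (adjusted p = 0.0535), or Parp1 with DESeq2's size factors (adjusted p = 0.0531) or without a filter (adjusted p = 0.0528).

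After treatment 6 members were higher in Cfp1-/- than in WT cells (17.1%) and 0 were lower, where 15.1% of tested genes were higher and 10.8% lower. The 6 were Mgmt (1.17 ± 0.22, adjusted p = 0.00557), Ercc2 (0.89 ± 0.15, adjusted p = 0.00302), Polh (0.87 ± 0.18, adjusted p = 0.00744), Poli (0.72 ± 0.18, adjusted p = 0.0188), Nthl1 (0.59 ± 0.16, adjusted p = 0.0265) and Lig3 (0.55 ± 0.12, adjusted p = 0.00888). Their treated replicates in WT and Cfp1-/- cells did not overlap, as held for 26 of the 35 members and 65.0% of all tested genes. Mgmt, Ercc2 and Lig3 were higher in Cfp1-/- cells both untreated and treated. At an unadjusted p under 0.05 there were 14 members in either direction, a limit at which the share of all tested genes was not counted. DESeq2's Wald test called 2 members lower.

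The share of all tested genes was not counted for the fit without the technical replicate that lost counts. In that fit 9 members were higher in treated Cfp1-/- cells and 1 was lower. The added ones were Ddb1 (0.56 ± 0.11, adjusted p = 0.00705, against 0.28 ± 0.18, adjusted p = 0.288 with it), Ercc1 (0.65 ± 0.18, adjusted p = 0.0247, against 0.55 ± 0.19, adjusted p = 0.0569) and Parp1 (0.39 ± 0.12, adjusted p = 0.0363, against 0.32 ± 0.12, adjusted p = 0.0821), with Ercc5 lower at -0.39. As CPM, the counts of a technical replicate scaled to its total, Ddb1 stood at 2106 in the intact run of replicate 1 and 2201 in both runs of replicate 2 of treated Cfp1-/- cells. In treated WT cells it stood at 1479 in the first and 1037 in the second run of replicate 1, the pair that differed beyond noise. Both runs of treated WT replicate 2 gave 1441. In untreated cells without that run Ddb1 also passed (0.32 ± 0.11, adjusted p = 0.0498), as did Poli.

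Lig3, Ercc2 and Mgmt kept the call after treatment with any 1 replicate left out. Polh lost it without treated WT replicate 2 (0.75, adjusted p = 0.0523), Poli without treated WT replicate 2 or either treated Cfp1-/- replicate (0.53 to 0.79, adjusted p from 0.0596 to 0.114), and Nthl1 without any 1 of the 4 treated replicates (0.50 to 0.68, adjusted p from 0.0502 to 0.139). Without treated WT replicate 2 the members higher numbered 3.

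**Figure D4:**
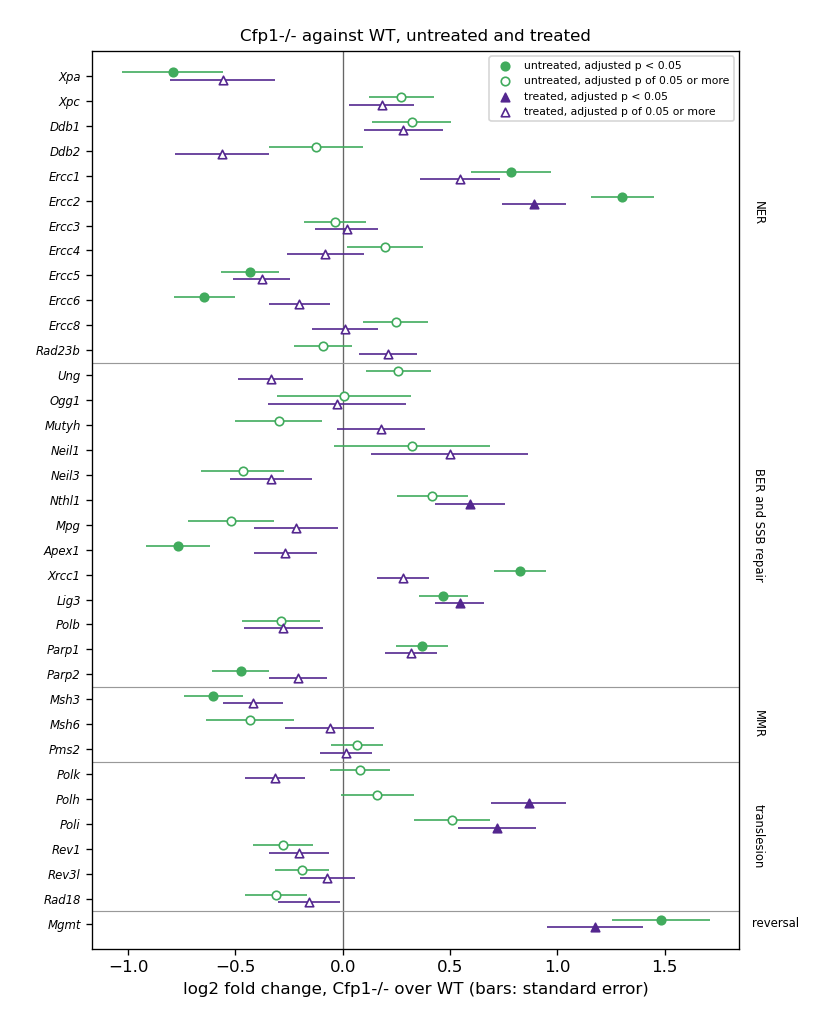
Log2 difference of each member between Cfp1-/- and WT cells, with standard errors, untreated (circles) and treated (triangles), filled where the adjusted p-value was under 0.05. Mgmt (1.48 and 1.17) and Ercc2 (1.30 and 0.89) lie furthest to the right in both conditions, and the filled points on the left, from -0.79 for Xpa to -0.43 for Ercc5, are all of untreated cells.

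The other genes of the same pathways were taken from a list of 47, all of which were tested. Of these, 6 rose (12.8%) and 19 fell (40.4%) in WT cells, and 5 rose (10.6%) and 20 fell (42.6%) in Cfp1-/- cells, with medians of -0.36 and -0.38. Of all tested genes 26.5% rose and 21.8% fell in WT and 27.8% and 21.0% in Cfp1-/- cells, with medians of 0.06 and 0.01. In both lines 5 of the 47 rose (10.6%) and 16 fell (34%), against 21.4% and 16.3% of tested genes. The list held 18 genes of nucleotide excision repair, of which 2 rose (11.1%) and 7 fell (38.9%) in both lines, against the same 21.4% and 16.3%. Among them were the TFIIH subunits Gtf2h1 (6667 and 6972 to 2493 and 3473 in WT and 6228 and 6388 to 3587 and 3269 in Cfp1-/- cells normalized counts, -1.15 ± 0.16, adjusted p = 0.000343 and -0.84 ± 0.16, adjusted p = 0.00204) and Gtf2h2 (1825 and 1865 to 846 and 868 in WT and 1464 and 1805 to 848 and 779 in Cfp1-/- cells, -1.06 ± 0.14, adjusted p = 0.000279 and -0.96 ± 0.14, adjusted p = 0.000499). The 3 subunits of the kinase module of TFIIH, Cdk7, Ccnh and Mnat1, fell in both lines, and so did Rpa1 and Rpa2, which coat single-stranded DNA. Uvssa, which acts with Ercc6, and Cul4a, the cullin that carries Ddb1, rose in both.

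Of 12 further genes of base excision and single-strand break repair, Apex2 (921 and 867 to 692 and 487 in WT and 739 and 638 to 260.4 and 335 in Cfp1-/- cells, -0.56 ± 0.21, adjusted p = 0.0483 and -1.17 ± 0.21, adjusted p = 0.00155) and Hmgb1 (9886 and 12296 to 5325 and 6609 in WT and 5051 and 5862 to 3499.9 and 3278 in Cfp1-/- cells, -0.85 ± 0.16, adjusted p = 0.00181 and -0.64 ± 0.16, adjusted p = 0.00785) fell in both lines, and Mbd4 and Aplf rose in both. Apex2, a relative of Apex1, Fen1, the flap nuclease, Cetn2 and Ube2a lie in the region that lost counts. Without that technical replicate Apex2 and Fen1 fell in Cfp1-/- cells by 0.87 ± 0.20 (adjusted p = 0.00546) and 0.53 ± 0.14 (adjusted p = 0.0131) on the log2 scale. Fen1 had fallen by 0.80 ± 0.22 (adjusted p = 0.014) with it. Cetn2 and Lig1, counted above as falling in Cfp1-/- cells, did not pass without it (-0.36 ± 0.19, adjusted p = 0.154 and -0.31 ± 0.12, adjusted p = 0.0576). Tdg, not counted there, passed without it (-0.53 ± 0.19, adjusted p = 0.0409). All 3 further mismatch repair genes fell in both lines, the MutL homologues Mlh3 (1403 and 1095 to 676 and 407 in WT and 1039 and 1013 to 569.9 and 442 in Cfp1-/- cells, -1.16 ± 0.25, adjusted p = 0.00358 and -0.98 ± 0.24, adjusted p = 0.00855) and Pms1 (1675 and 1883 to 872 and 793 in WT and 1420.3 and 1214 to 723 and 512 in Cfp1-/- cells, -1.05 ± 0.19, adjusted p = 0.00135 and -1.05 ± 0.19, adjusted p = 0.0014) and the exonuclease Exo1. Of 12 genes that serve translesion synthesis, 4 fell in both lines (33.3%, against 16.3% of tested genes) and 0 rose (against 21.4%). They were Usp1, which removes ubiquitin from Pcna (8403 and 8232 to 3258 and 2912 in WT and 6986 and 5834 to 3172 and 2086 in Cfp1-/- cells, -1.39 ± 0.20, adjusted p = 0.000363 and -1.24 ± 0.20, adjusted p = 0.00069), Hltf, a Pcna ubiquitin ligase (4851 and 5048 to 1747 and 2184 in WT and 3005 and 3294 to 1578 and 1784 in Cfp1-/- cells, -1.29 ± 0.14, adjusted p = 8.99e-05 and -0.86 ± 0.14, adjusted p = 0.000894), Pcna itself and Pold3. Alkbh3, which like Mgmt reverses alkylation, rose in both lines (623 and 572 to 1281 and 1088 in WT and 582 and 592 to 1048 and 1047 in Cfp1-/- cells, 1.03 ± 0.15, adjusted p = 0.00037 and 0.88 ± 0.15, adjusted p = 0.000954), and Alkbh2 rose in WT (1.25 ± 0.21, adjusted p = 0.00095), with 0.44 ± 0.20, adjusted p = 0.0978 in Cfp1-/- cells.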

How the data were processed

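RNA was depleted of ribosomal RNA and sequenced strand by strand as paired reads of 75 bp. The authors aligned reads to NCBIm37 (mm9) with STAR 2.2.1, per the submitters' processing notes, and counted them on Ensembl exons with HTSeq (stranded, union mode). They deposited raw counts for 16 samples and a normalized table, a signal equal to the summed counts of the technical replicates divided by a DESeq size factor. Values in the text are from the latter.

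Here technical replicates were summed and tested with edgeR 4.0.16 in R 4.3.3 (filterByExpr, TMM scaling, 1 coefficient per group, glmQLFit and glmQLFTest), with Benjamini-Hochberg adjustment over 15758 genes. Standard errors are the log2 fold change divided by the root of F. A member was called at an adjusted p-value under 0.05. Nothing in the sources used here says whether replicates were separate cultures, so p-values measure the spread between these samples. The script recovered 99.0% (WT) and 99.5% (Cfp1-/-) of 200 genes changed 3-fold in simulated counts.

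Members and lists were chosen with earlier results of these data known. Every replicate's values are given for members that passed in both lines at 1.5-fold or more, that passed a comparison of genotypes or that averaged under 200 normalized counts; other members named with all values were chosen after their values were seen. From the other genes of each pathway, the 2 with the highest mean change among those that passed in both lines are given with values. Coordinates are those of the deposited tables. The sample labels give the dose of treated samples as 1 mM in a single field and the protocol gives 1 µM, which is used here.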

Additional observations from a re-analysis of the deposited data

Results flagged for a closer look

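The values of Ung, the uracil glycosylase, lay on opposite sides of the untreated ones in the 2 lines, and neither response passed the test (adjusted p = 0.0962 in WT and 0.179 in Cfp1-/- cells). Both treated replicates lay above both untreated ones in WT cells and below them in Cfp1-/- cells. In edgeR with replicate number as a block and without the technical replicate that lost counts, both responses passed. They were at 0.33 (adjusted p = 0.036) in WT and -0.32 (adjusted p = 0.0382) in Cfp1-/- cells, and the difference between them was still not called. The difference between the responses, Cfp1-/- minus WT, was -0.59 ± 0.21 on the log2 scale and did not pass edgeR's test (adjusted p = 0.366, unadjusted p = 0.02), so a difference between the lines is not established.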

How the results depend on the processing

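Of 51 called results for members, 51 kept their call under the replicate block, 51 without the technical replicate that lost counts, 50 with the first technical replicates alone, 50 with DESeq2's Wald test, 49 with DESeq2's size factors, 49 without a filter, 48 with the groups of each comparison alone and 40 with total counts, and none of them reversed. With 1 biological replicate left out, which leaves a lone sample assumed to vary like the other groups, 39 to 46 kept it. Low depth limits Neil1, Ogg1 and Xpa most.

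Members higher and lower numbered, with 1 replicate left out, 5 to 9 and 6 to 10 in the WT response, 5 to 8 and 6 to 8 in the Cfp1-/- response, 3 to 7 and 2 to 6 in untreated cells, and 3 to 6 and 0 to 1 in treated cells. With total counts 5 and 4 fell in WT and Cfp1-/- cells, and 11 were higher and 3 lower in untreated Cfp1-/- cells. For the settings of this section no share of all tested genes was counted, apart from the 2.5-fold limit. At 2.5-fold and a mean of 200, 2 rose and 1 fell in WT and 1 rose and 0 fell in Cfp1-/- cells. Members lower in treated Cfp1-/- cells numbered 1 with DESeq2's size factors, 2 with the Wald test, 2 with the replicate block, 1 without the affected run and 1 with the first technical replicates alone. For the other genes of the pathways, settings added after the data were seen kept each count within 1.5-fold (total counts 8 and 13 in WT, 7 and 15 in Cfp1-/- cells).

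Replicate numbers are shared by the groups, and no label says what they mark. Deviations of same-numbered replicates correlated at 0.14 to 0.451 over the 6 pairs of groups, across genes, which are not independent. With the replicate block 10 members rose and 11 fell in WT, 8 and 9 in Cfp1-/- cells, and 7 were higher and 9 lower in untreated and 8 and 2 in treated Cfp1-/- cells. The members called with the block and not without it were Xpc, Ung and Msh6 in WT, Msh3 and Parp1 in Cfp1-/- cells, Poli, Mpg, Msh6 and Rad18 between untreated genotypes, and Ercc1, Parp1, Ercc5 and Msh3 between treated ones. For Msh6 in WT the log2 fold change was -0.44 with the block and -0.45 without it, at edgeR's adjusted p = 0.00835 and 0.0994. The block together with leaving out the affected run gave 10 higher and 4 lower in treated cells.

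Values that changed sign were all of uncalled results, and the cause was not tested. With total counts, which moved the median of all genes, WT log2 fold changes were 0.0635 for Ddb1, 0.18 for Ercc2, 0.14 for Ercc3, 0.26 for Ercc4, 0.0683 for Parp1, 0.11 for Rev3l and 0.26 for Rad18, and Cfp1-/- values were 0.14 for Ercc1, 0.10 for Ercc3, 0.21 for Ercc6, 0.0378 for Ercc8, 0.13 for Msh6, 0.14 for Polh and 0.12 for Rev3l. Ddb2 in Cfp1-/- cells was at -0.016 with DESeq2's size factors, -0.02 with the Wald test and -0.0487 with the first technical replicates, which also gave -0.036 for Neil1 in WT. Ercc1 in Cfp1-/- cells was at 0.0241 without the affected run, 0.0259 with the block as well and 0.0294 with the first technical replicates. The Ddb1 difference between responses was then 0.23, 0.24 and 0.13. With 1 replicate left out the ranges were, in WT, -0.0589 to 0.34 for Ercc1, -0.17 to 0.038 for Ercc4, -0.0683 to 0.18 for Ercc8, -0.22 to 0.73 for Neil1 and -0.18 to 0.0471 for Rad18. In Cfp1-/- cells they were -0.0978 to 0.13 for Ddb2, -0.17 to 0.0036 for Ercc1, -0.072 to 0.0457 for Ercc6, -0.071 to 0.21 for Mutyh, -0.23 to 0.0481 for Msh6 and -0.0389 to 0.22 for Rad18. Ddb1 ranged from -0.38 to 0.23 in the difference between responses and from -0.0575 to 0.55 between treated genotypes.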
